A study of Mus musculus with 18 samples.

Results

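The growth arrest and p53 target genes described here are 10 genes of mouse liver, Cdkn1a, Gadd45a, Gadd45b, Gadd45g, Mdm2, Ccng1, Btg2, Ccnd1, Myc and Trp53inp1, chosen by symbol from a table of 54532 genes. All 10 were found in the table and were above 0 in all 18 mice. Bulk liver mRNA, selected with poly-T beads, was sequenced from male C57BL/6J mice (strain given as C57BL/6 in the labels), which were 6 weeks old on arrival and were fasted overnight before collection. The 6 normal control mice (NC) ate normal chow. The 6 HFD control mice (HFD) ate a high-fat diet for 14 weeks and then received saline while the diet went on. The 6 SZ-A mice had the same diet and then received SZ-A, the alkaloid fraction of Ramulus Mori (mulberry twig), for 6 weeks according to the methods and 8 weeks according to the deposited design. The dose and route for the sequenced mice are not given in the sources used here. One mouse, NC6, is titled as chow but labelled with a high-fat diet; it was kept in NC by its title, and every NC comparison was repeated without it.

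The protein p53 is a transcription factor that is stabilised by DNA damage and other stresses and switches on genes that hold the cell cycle, repair DNA or remove the cell. Cdkn1a encodes p21, the inhibitor of cyclin-dependent kinases through which p53 arrests cells before DNA synthesis, and Mdm2 encodes the ubiquitin ligase that binds p53 and marks it for degradation. The 3 Gadd45 proteins are small stress sensors that bind p21, PCNA and the kinase MEKK4; only Gadd45a is a classical p53 target, while Gadd45b and Gadd45g answer to other signals, NF-kB and cytokines among them. Ccnd1 (cyclin D1) and Myc push in the other direction, carrying growth signals into the cell cycle, and most adult hepatocytes are out of the cycle.

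HFD and NC livers differed in 5 of these 10 genes, where a gene counts as called when it passes a test adjusted over all expressed genes. Gadd45a, Ccnd1 and Ccng1 rose in HFD, beside 10.7% of all genes tested that were called higher, and Gadd45b and Gadd45g fell, beside 9.49% called lower. The best-known p53 readouts, Cdkn1a and Mdm2, were not among them. Between SZ-A and HFD mice 0.147% of all genes tested were called in limma on log2 FPKM, and 0 of the 10 members, which is no result about the members. The number of genes called there moved with the settings, as given at the end. With DESeq2 at the same thresholds the paper reports more genes for this comparison. Gadd45a and Ccnd1 were higher and Gadd45b was lower in SZ-A than in NC mice, beside 5.31% of genes called higher and 4.3% called lower.

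Promoter windows were read for 7 of the 10 members, Cdkn1a, Gadd45a, Gadd45b, Gadd45g, Mdm2, Ccng1 and Btg2, from RefSeq (GRCm38.p6); Cdkn1a has windows at 2 starts, which makes 8. The 250 bases before each start were searched on both strands for the p53 decamer (the 10-base unit of the p53 response element), CACGTG (the E-box bound by MYC and by CLOCK), TGACGTCA (the cyclic AMP response element), TGTTTAC (a forkhead site) and TATAAA. The p53 decamer was found in 4 of the 8 windows and in 7.13% of 32851 promoters of the same length. The members were chosen as growth arrest and p53 target genes, so this share is no independent result. Only the decamer was searched for, not the full response element. It lay 73 to 64 and 51 to 42 bases before the upstream start of Cdkn1a, 40 to 31 bases before the start of Gadd45a, 186 to 177 before that of Mdm2 and 185 to 176 before that of Ccng1. The Gadd45a site falls inside the gene as the deposited annotation draws it, which starts further upstream than the RefSeq gene. The sites are shown with 10 bases on each side, 5′ to 3′ on the strand of the gene, with the decamer in capitals.

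Cdkn1a (plus strand, chr17:29090896-29090925): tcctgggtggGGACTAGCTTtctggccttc
Cdkn1a (plus strand, chr17:29090918-29090947): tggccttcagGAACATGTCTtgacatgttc
Gadd45a (minus strand, chr6:67037428-67037457): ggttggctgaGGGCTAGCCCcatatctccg
Mdm2 (minus strand, chr10:117710925-117710954): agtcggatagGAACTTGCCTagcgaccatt
Ccng1 (minus strand, chr11:40755452-40755481): agacctgcccGGGCAAGCCTtggcactgaa

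Among the 7 members with windows, Gadd45b and Gadd45g were the ones that held CACGTG (6.02% of all promoters) and TATAAA (12.4% of all promoters). The p53 decamer was absent from both, and from Btg2 as well. Whether these motifs bear on the direction of change was not tested. The Gadd45b and Gadd45g windows are shown up to the start of the gene in the deposited annotation, with both motifs in capitals. The 2 motifs do not overlap, and the matches are descriptions of the letters and not of binding.

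Gadd45b (plus strand, chr10:80929841-80930072): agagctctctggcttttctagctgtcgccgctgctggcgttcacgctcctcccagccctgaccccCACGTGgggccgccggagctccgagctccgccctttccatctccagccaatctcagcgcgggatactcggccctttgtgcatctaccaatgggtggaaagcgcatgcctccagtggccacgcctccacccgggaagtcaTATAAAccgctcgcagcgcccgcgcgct
Gadd45g (plus strand, chr13:51846425-51846674): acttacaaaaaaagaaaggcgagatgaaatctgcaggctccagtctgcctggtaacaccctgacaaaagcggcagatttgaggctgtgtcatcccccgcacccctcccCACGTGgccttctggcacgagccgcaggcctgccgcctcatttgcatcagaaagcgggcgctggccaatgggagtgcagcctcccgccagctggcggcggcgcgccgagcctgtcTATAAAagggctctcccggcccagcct

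TGACGTCA was present in the Btg2 window (1.55% of all promoters), 166 to 159 bases before the start, and TGTTTAC in the Mdm2 window, on the minus strand of the gene (3.17% of all promoters).

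Levels are FPKM, fragments scaled to gene length and library size, so that they can be compared between genes. Depth was 17163191 to 20493907 fragments on genes per mouse. Fold changes are differences of the mean log2(FPKM + 0.1), tested in limma over the 10216 genes whose mean FPKM reached 1, and a gene was called where the fold change exceeded 1.2 and the p adjusted by Benjamini-Hochberg lay below 0.05; all 10 members passed the filter on low genes, Gadd45a only through its level in HFD and SZ-A mice. The lowest HFD mouse was above the highest NC mouse, or the reverse, for 10.5% of genes and for 2 of the 10 members. The median log2 fold change of the members was 0.16, and that of all genes was -0.03. All 5 calls held without NC6. In HFD against NC, counts for the gene lists below stand beside 10.7% of genes called higher and 9.49% called lower.

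**Figure D1:**
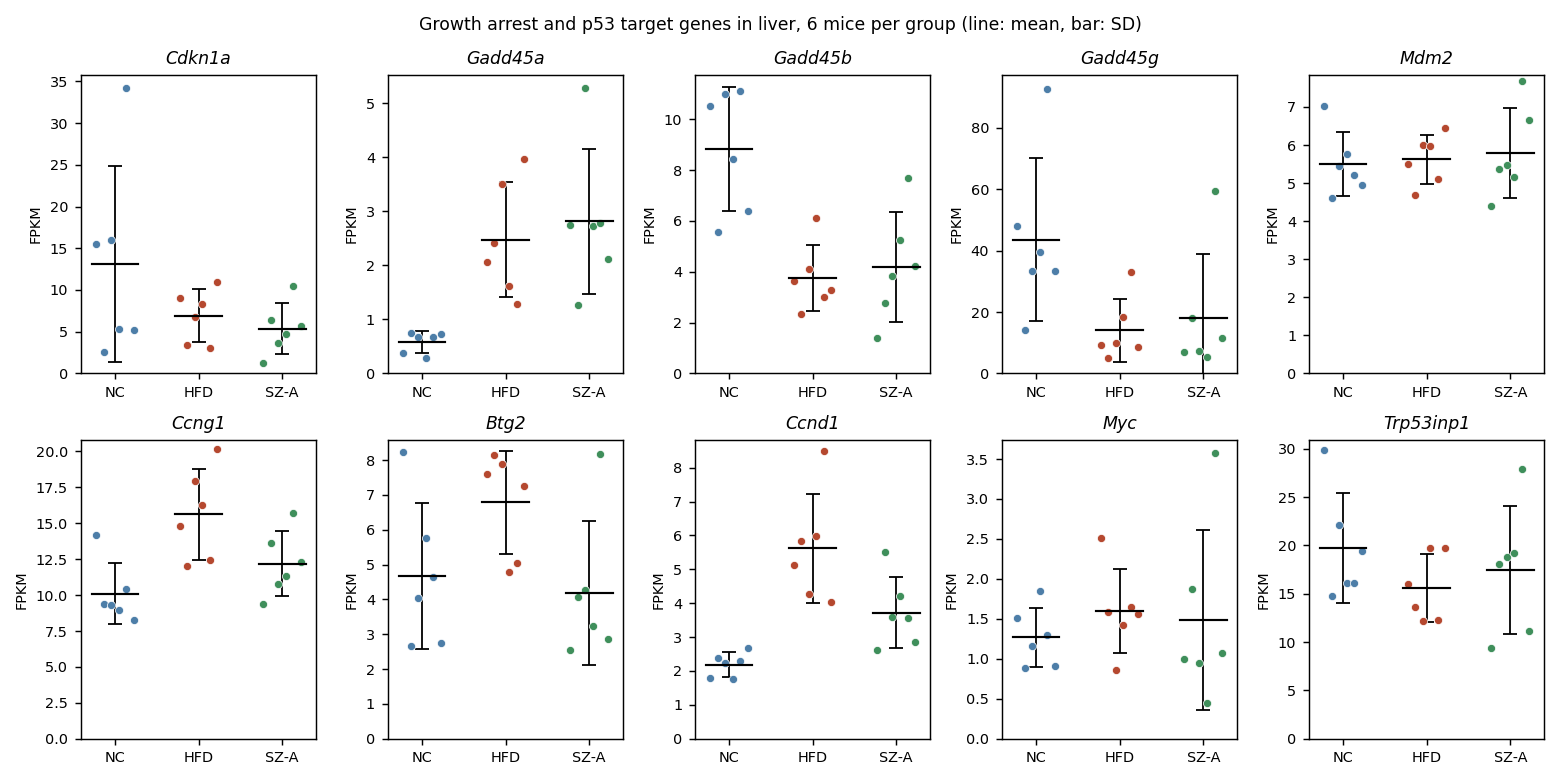
FPKM (y axis, linear, from 0) of each of the 10 genes in the NC, HFD and SZ-A mice; each point is 1 mouse, the line is the mean and the bar is the SD (n = 6), cut at 0 where it would pass below. Gadd45a and Ccnd1 in NC lie below every HFD mouse, while Gadd45b and Gadd45g are mostly higher in NC; SZ-A5 is the high SZ-A point at 59.2 for Gadd45g and 8.18 for Btg2.

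Gadd45a (ENSMUSG00000036390, chr6:67035096-67037457, minus strand, mm10) was the member with the largest rise. NC mice ran from 0.280 to 0.748 FPKM (median 0.672), HFD mice from 1.28 to 3.96 (median 2.24) and SZ-A mice from 1.26 to 5.28 (median 2.73). All HFD mice and all SZ-A mice were above all NC mice, and HFD and SZ-A overlapped almost entirely. The mean rose from 0.580 ± 0.196 in NC to 2.48 ± 1.06 in HFD (SD, n = 6), a log2 fold change of 1.88 (SE 0.29, adjusted p = 0.000762), or 3.68-fold. Against NC, the SZ-A mice stood 2.04 higher on the log2 scale (SE 0.30, adjusted p = 0.00188), at 2.82 ± 1.34. Between SZ-A and HFD the log2 difference was 0.16, with a 95% interval from -0.53 to 0.86 (adjusted p = 0.856), so neither a rise nor a fall was detectable. Gadd45a was also the least abundant member in NC, with 10 to 24 fragments per mouse. At the NC mean of 18.3 fragments, counting alone gives a CV of 23.4%, and the observed CV of Gadd45a was 33.8%. The pseudocount therefore weighs on its fold change, which was 1.09 for HFD against NC with a pseudocount of 1 and stayed called. Its NC mean of 0.580 was below the filter on low genes, so that its place among the genes tested rested on the groups where it was high; with no filter it was called too (adjusted p = 0.00476 for HFD and 0.011 for SZ-A against NC).

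Gadd45b (ENSMUSG00000015312, chr10:80930073-80932204, plus strand) moved the opposite way. FPKM lay between 5.56 and 11.1 among NC mice (median 9.47), between 2.35 and 6.11 among HFD mice (median 3.46) and between 1.38 and 7.70 among SZ-A mice (median 4.03). Of the HFD mice, 5 of 6 were below the lowest NC mouse, and so were 5 of 6 SZ-A mice; HFD4 and SZ-A5 were the exceptions. It fell by 1.23 on the log2 scale in HFD (SE 0.23, adjusted p = 0.00235), from 8.83 ± 2.43 to 3.74 ± 1.30. SZ-A against NC gave -1.18 (SE 0.33, adjusted p = 0.041), close to the threshold, and this call was lost when any of 8 single mice was left out (SZ-A1, SZ-A2, SZ-A3, SZ-A6, NC1, NC3, NC4 or NC5; adjusted p from 0.0509 to 0.0816). SZ-A and HFD differed by 0.04, with a 95% interval from -0.69 to 0.78 (adjusted p = 0.967).

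Gadd45g (ENSMUSG00000021453, chr13:51846678-51848468, plus strand) had the highest mean of the 10 genes in NC and varied widely between mice, with CVs of 60.9%, 73.4% and 114% for NC, HFD and SZ-A. NC mice went from 14.1 to 92.5 FPKM (median 36.5), HFD mice from 5.01 to 33.1 (median 9.57) and SZ-A mice from 5.42 to 59.2 (median 9.44). The groups overlapped: 4 of 6 HFD mice and 4 of 6 SZ-A mice were below the lowest NC mouse, NC2, while SZ-A5 exceeded every NC mouse but NC5. Its mean fell from 43.5 ± 26.5 to 14.1 ± 10.3 in HFD (log2 fold change -1.68, SE 0.46, adjusted p = 0.0201). With no filter on low genes the same difference had an adjusted p of 0.071. SZ-A against NC gave -1.59 (SE 0.55, adjusted p = 0.0857) and did not pass, but without SZ-A5 it was -2.04 (adjusted p = 0.00891). For SZ-A against HFD the value was 0.09 (95% interval from -1.14 to 1.32, adjusted p = 0.96), an interval that leaves room for a change of more than 2-fold in either direction.

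The order of the 3 Gadd45 means, Gadd45g over Gadd45b over Gadd45a, was the same in every group, but the distances were smaller on the high-fat diet. NC mice had mean FPKM of 43.5, 8.83 and 0.580, HFD mice 14.1, 3.74 and 2.48, and SZ-A mice 18.1, 4.19 and 2.82. Gadd45a shares 859 bases with E230016M11Rik on the opposite strand, a gene at 0.013 to 0.365 FPKM. Of the MAP kinase cascade that Gadd45 proteins can activate, 6 of 7 listed genes were tested in HFD against NC, and the p38 kinase kinase Map2k3 rose (log2 fold change 0.41, SE 0.12, adjusted p = 0.0309) while the other 5 were not called.

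Markers of other programmes moved in the same livers. The glucocorticoid-induced genes Pck1 and Tat, which serve gluconeogenesis and tyrosine breakdown, fell in HFD, with log2 fold changes of -1.15 (adjusted p = 0.000253) and -1.47 (adjusted p = 0.00297), as did Tsc22d3 at -0.77 (adjusted p = 0.0327); the remaining 6 of 9 listed genes were not called. The stress factors Chac1 and Atf3 of the integrated stress response rose (3.26, adjusted p = 2.78e-05, and 2.40, adjusted p = 0.000247), and asparagine synthetase, Asns, of the same list fell (-3.52, adjusted p = 4.35e-05), with 5 of 8 tested genes not called. Among immediate early genes, Jun, Junb and Ier3 rose (1.14, 0.78 and 0.79; adjusted p = 0.00077, 0.0185 and 0.0196) and 4 of 7 were not called. Among clock genes, Dbp and Per3 rose (2.17, adjusted p = 0.00991, and 1.95, adjusted p = 0.00241), Clock fell (-0.56, adjusted p = 0.0276) and 5 of 8 tested genes were not called. Chac1, Atf3, Per3 and Ier3 had NC means of 0.376, 0.708, 0.406 and 0.687 FPKM, below the filter on low genes. They were tested only through the groups where they were high. Asns passed only through NC, at 4.33, with means of 0.326 in HFD and 0.665 in SZ-A. The part of these programmes in the changes of the Gadd45 genes was not tested.

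Ccnd1 (ENSMUSG00000070348, chr7:144929931-144939925, minus strand), the cyclin that carries growth signals to CDK4 and CDK6, was the second member whose HFD and NC mice did not overlap. NC mice held 1.75 to 2.69 FPKM (median 2.26), HFD mice 4.04 to 8.48 (median 5.47) and SZ-A mice 2.62 to 5.51 (median 3.57). SZ-A mice lay between the other groups: 5 of 6 were above the highest NC mouse and 4 of 6 were below the lowest HFD mouse. Mean FPKM rose from 2.19 ± 0.358 in NC to 5.62 ± 1.61 in HFD, a log2 fold change of 1.29 (SE 0.17, adjusted p = 0.000266), or 2.45-fold. In SZ-A mice it was 3.72 ± 1.04, higher than in NC by 0.71 on the log2 scale (SE 0.17, adjusted p = 0.0181). All 6 SZ-A mice were below the HFD mean, and the log2 difference was -0.58 (SE 0.20), but this did not pass the adjustment over all genes (unadjusted p = 0.012, adjusted p = 0.2). Ccnd1 shares 1771 bases with Oraov1 on the opposite strand, whose mean FPKM was 1.81 for NC and 2.20 for both HFD and SZ-A; whether strand was used in counting is not given in the sources used here, so reads of the shared part cannot be told apart.

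The related cell cycle genes that were called moved in both directions. Of the 7 tested genes among G1 cyclins, their kinases and the retinoblastoma family, 2 fell in HFD and the remaining 5 were not called. The cyclin Ccnd3 went from 5.97 ± 0.431 to 4.04 ± 0.530 (log2 fold change -0.56, SE 0.09, adjusted p = 0.00123), and the retinoblastoma relative Rbl2 fell by 0.36 (adjusted p = 0.0156). Among 17 proliferation markers only 5 reached the filter, and 1, the replication licensing factor Mcm3, rose (0.52, adjusted p = 0.0309). Mcm3 had means of 0.986 in NC and 0.972 in SZ-A, below the filter, and was tested only through HFD, at 1.48. Mki67, the standard marker of cycling cells, stayed far below the filter, with mean FPKM of 0.105, 0.188 and 0.0979 for NC, HFD and SZ-A. Of the other inhibitors of cyclin-dependent kinases, 3 of 6 were tested and none was called in limma, p27 (Cdkn1b) standing at -0.05 (adjusted p = 0.835). An unadjusted p under 0.05 was reached by 1 of the 3, beside 34.8% of all genes tested.

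Some markers of other liver cells rose in the same HFD livers as Ccnd1. Of 8 stellate cell markers, 6 rose and 2 were not called, and their summed FPKM was 10.3 to 18.4 over NC mice, 15.3 to 46.8 over HFD mice and 13.3 to 23.9 over SZ-A mice; sums of the other lists follow in this order of groups. Kupffer cell and macrophage markers rose in 4 of 8 (sums 130 to 266, 251 to 411 and 222 to 319), both tested neutrophil markers of 5 listed rose (sums 0.687 to 5.26, 4.68 to 17.5 and 3.81 to 15.3), 1 of 7 endothelial markers rose (48.9 to 60.8, 55.0 to 67.8 and 57.1 to 61.8), and neither of the 2 tested cholangiocyte markers of 5 listed was called (10.9 to 39.0, 21.8 to 44.3 and 15.1 to 30.1). Hepatocyte markers summed to 41700 to 59200, 28400 to 47400 and 33400 to 59200, with 2 of 6 called lower in HFD. Both tested adipocyte markers of 5 listed rose (summed FPKM 1.49 to 8.64, 24.0 to 138 and 2.62 to 33.6), while the defining markers Adipoq, Plin1 and Lep were at 0 in 7, 12 and 17 of the 18 mice. None of the 7 T cell and B cell markers reached the filter (sums 0.429 to 2.33, 0.574 to 1.47 and 0.666 to 1.74), and of the neutrophil markers Mpo, Ngp and Ly6g were at 0 in 15, 9 and 16 mice. Col1a1, Col1a2 and S100a8 had NC means of 0.796, 0.709 and 0.812 FPKM, below the filter. They were tested only through the groups where they were high. In bulk liver, more cells of a type and more RNA per cell cannot be told apart, and the part of these cells in the Ccnd1 and Gadd45a values was not tested.

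**Figure D2:**
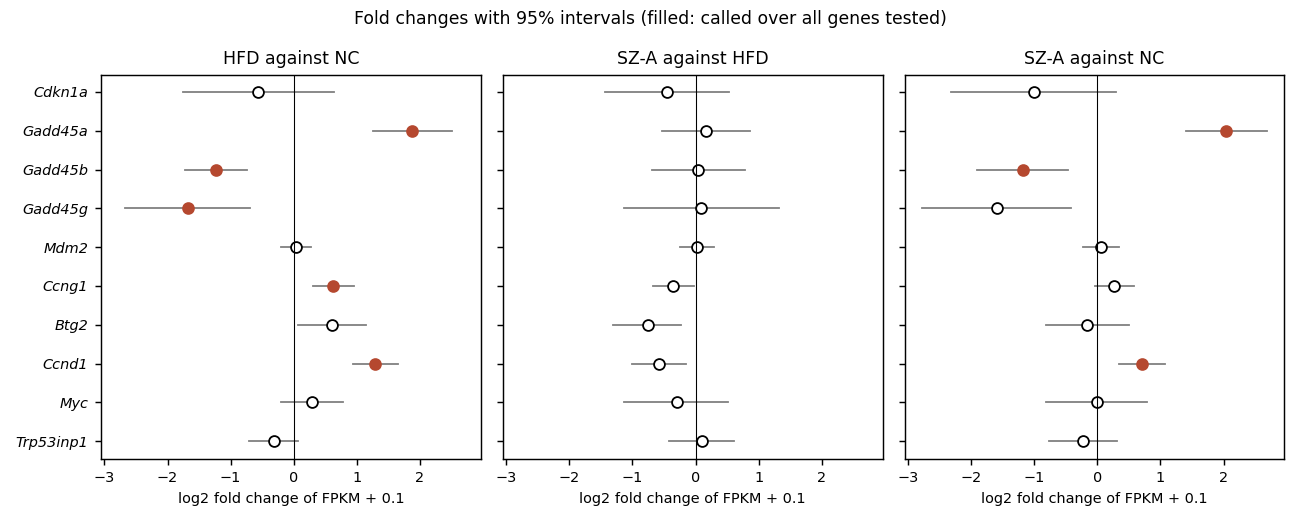
Log2 fold change of FPKM + 0.1 (x axis) of each gene in the 3 comparisons, with 95% intervals; filled points were called over all genes tested. In HFD against NC the called genes lie on both sides, Gadd45a at 1.88 and Gadd45g at -1.68; in SZ-A against HFD no point is filled, and the intervals of Btg2, Ccnd1 and Ccng1 lie below 0.

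Cdkn1a (ENSMUSG00000023067, chr17:29090976-29100727, plus strand) varied widely among NC mice and was not called. NC livers spanned 2.52 to 34.2 FPKM (median 10.4), HFD livers 3.05 to 11.0 (median 7.57) and SZ-A livers 1.26 to 10.5 (median 5.18). NC5 alone was more than 2-fold above the next NC mouse, NC3 at 16.0, and the 3 groups overlapped. Means were 13.1 ± 11.8 for NC, 6.93 ± 3.18 for HFD and 5.36 ± 3.07 for SZ-A. The log2 difference was -0.56 for HFD against NC (95% interval from -1.75 to 0.64, adjusted p = 0.511), and leaving out 1 mouse moved it to -0.18 (without NC5) or -0.92 (without NC2), with no call either way. For SZ-A against NC it was -1.01 (95% interval from -2.31 to 0.29, adjusted p = 0.32), -0.63 without NC5 and -0.66 without SZ-A1. For SZ-A against HFD it was -0.45 (from -1.43 to 0.53, adjusted p = 0.687) and -0.10 without SZ-A1. Fragments ran from 80 to 1966 per mouse. At the mean fragments of each group, counting alone gives a CV of 3.51% to 5.36%, where the observed CV was 45.9% to 89.7% over the 3 groups. AC167363.2 overlaps 1046 bases of Cdkn1a on the opposite strand and reached at most 0.217 FPKM.

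Mdm2 (ENSMUSG00000020184, chr10:117688875-117710758, minus strand) had the smallest CV of the 10 genes among NC mice (15.4%) and among HFD mice (11.5%). Values were 4.62 to 7.04 for NC (median 5.34), 4.68 to 6.43 for HFD (median 5.74) and 4.39 to 7.69 for SZ-A (median 5.42), with means of 5.51 ± 0.847, 5.62 ± 0.646 and 5.79 ± 1.18. The groups lay on top of each other. The 95% interval of the log2 difference ran from -0.20 to 0.27 for HFD against NC (adjusted p = 0.852), from -0.24 to 0.30 for SZ-A against HFD (adjusted p = 0.944) and from -0.23 to 0.35 for SZ-A against NC (adjusted p = 0.831). The transcript of p53 itself, Trp53, was not called either, with means of 3.92 ± 0.764, 4.32 ± 0.423 and 3.93 ± 0.298 (HFD against NC 0.15, SE 0.12, adjusted p = 0.389), and the Mdm2 partner Mdm4 gave -0.26 (SE 0.10, adjusted p = 0.0765). None of the 9 tested genes of p53 and its regulators was called in HFD against NC in limma. An unadjusted p under 0.05 was reached by 1 of them, beside 34.8% of all genes tested.

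Ccng1 (ENSMUSG00000020326, chr11:40748552-40755311, minus strand), the p53-induced cyclin G1 that brings the phosphatase PP2A to Mdm2, rose in HFD. NC mice ranged from 8.30 to 14.2 FPKM (median 9.33), HFD mice from 12.1 to 20.2 (median 15.5) and SZ-A mice from 9.38 to 15.8 (median 11.8). NC1 was the highest NC mouse, with the next at 10.5, and 4 of 6 HFD mice were above NC1. The log2 fold change for HFD against NC was 0.62 (SE 0.15, adjusted p = 0.0108), from 10.1 ± 2.13 to 15.6 ± 3.17, or 1.54-fold. SZ-A mice had 12.2 ± 2.25. They were below the HFD mean in 5 of 6 mice, a log2 difference of -0.35 (SE 0.15, unadjusted p = 0.0333, adjusted p = 0.287), and against NC they gave 0.27 (SE 0.14, adjusted p = 0.253).

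Btg2 (ENSMUSG00000020423, chr1:134075170-134079120, minus strand), an antiproliferative cofactor of the CCR4-NOT deadenylase, had the largest drop of the 10 genes between HFD and SZ-A mice, on the log2 scale, without passing the test. NC livers had 2.66 to 8.23 FPKM (median 4.34), HFD livers 4.79 to 8.15 (median 7.43) and SZ-A livers 2.54 to 8.18 (median 3.65). Of the SZ-A mice, 5 of 6 were below the lowest HFD mouse and SZ-A5 was above the highest. The difference was -0.76 (SE 0.25, 95% interval from -1.30 to -0.23, unadjusted p = 0.00904, adjusted p = 0.183), with means of 6.79 ± 1.49 and 4.19 ± 2.07. Leaving out SZ-A5 brought it to -0.98 and across the threshold (adjusted p = 0.0493). HFD against NC was 0.60 (SE 0.25, adjusted p = 0.106) and was called without NC1, at 0.79 (adjusted p = 0.0254). SZ-A against NC was -0.16 (95% interval from -0.82 to 0.50, adjusted p = 0.802). In the same family, 4 other genes were tested in HFD against NC, and Btg3 fell (-1.23, SE 0.21, adjusted p = 0.00163) while Btg1, Tob1 and Tob2 were not called. Btg3 passed the filter only through NC, at 1.76, with means of 0.669 in HFD and 0.725 in SZ-A.

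Trp53inp1 (ENSMUSG00000028211, chr4:11156431-11174379, plus strand), a nuclear body and autophagy protein that helps p53 to act on death genes, was among the more abundant members and was not called. FPKM lay between 14.7 and 29.9 for NC (median 17.8), between 12.2 and 19.7 for HFD (median 14.8) and between 9.39 and 27.9 for SZ-A (median 18.5). Of the HFD mice, 3 of 6 were below the lowest NC mouse, and the other 3 were inside the NC range. The log2 difference was -0.32 (SE 0.18, adjusted p = 0.227) for HFD against NC, 0.10 (SE 0.24, adjusted p = 0.885) for SZ-A against HFD and -0.22 (SE 0.25, adjusted p = 0.626) for SZ-A against NC. Means were 19.7 ± 5.65, 15.6 ± 3.48 and 17.4 ± 6.61.

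Myc (ENSMUSG00000022346, chr15:61985391-61990374, plus strand) was low in every group. NC mice had 0.886 to 1.85 FPKM (median 1.23), HFD mice 0.864 to 2.51 (median 1.57) and SZ-A mice 0.448 to 3.58 (median 1.03), and the SZ-A group held both the lowest mouse, SZ-A4, and the highest, SZ-A5. The groups overlapped, with means of 1.27 ± 0.369, 1.60 ± 0.530 and 1.49 ± 1.12. The log2 difference was 0.29 for HFD against NC (SE 0.23, adjusted p = 0.389), -0.30 for SZ-A against HFD (SE 0.38, adjusted p = 0.761) and -0.01 for SZ-A against NC (SE 0.37, adjusted p = 0.991). Fragments ran from 22 to 170 per mouse, and the mean fragments of each group give a counting CV of 10.6% to 12.6%. Of 10 genes known as MYC targets, the lactate dehydrogenase Ldha was called in HFD against NC, lower by 0.82 (log2 fold change -0.82, adjusted p = 0.000131), and 9 were not called. Of 7 tested MYC partners and antagonists none was called in limma, and 2 had an unadjusted p under 0.05, beside 34.8% of all genes tested.

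Beyond the 10 members, 26 other p53 targets were listed and 14 reached the filter. In HFD against NC 2 rose, 1 fell and 11 were not called, with a median log2 fold change of 0.09. Of all genes tested, 10.7% were called higher and 9.49% lower, so these counts are no result about the list. The death receptor Fas rose from 7.94 ± 0.881 to 13.7 ± 1.42 (log2 fold change 0.78, SE 0.09, adjusted p = 0.000162). Phlda3, an inhibitor of AKT, rose by 1.43 (SE 0.40, adjusted p = 0.0222), from 0.881 ± 0.410 to 2.75 ± 1.58. Its NC mean was below the filter, so it was tested only through the groups where it was high. Ei24, an endoplasmic reticulum protein of autophagy, fell by 0.52 (log2 fold change -0.52, SE 0.12, adjusted p = 0.00788).

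**Figure D3:**
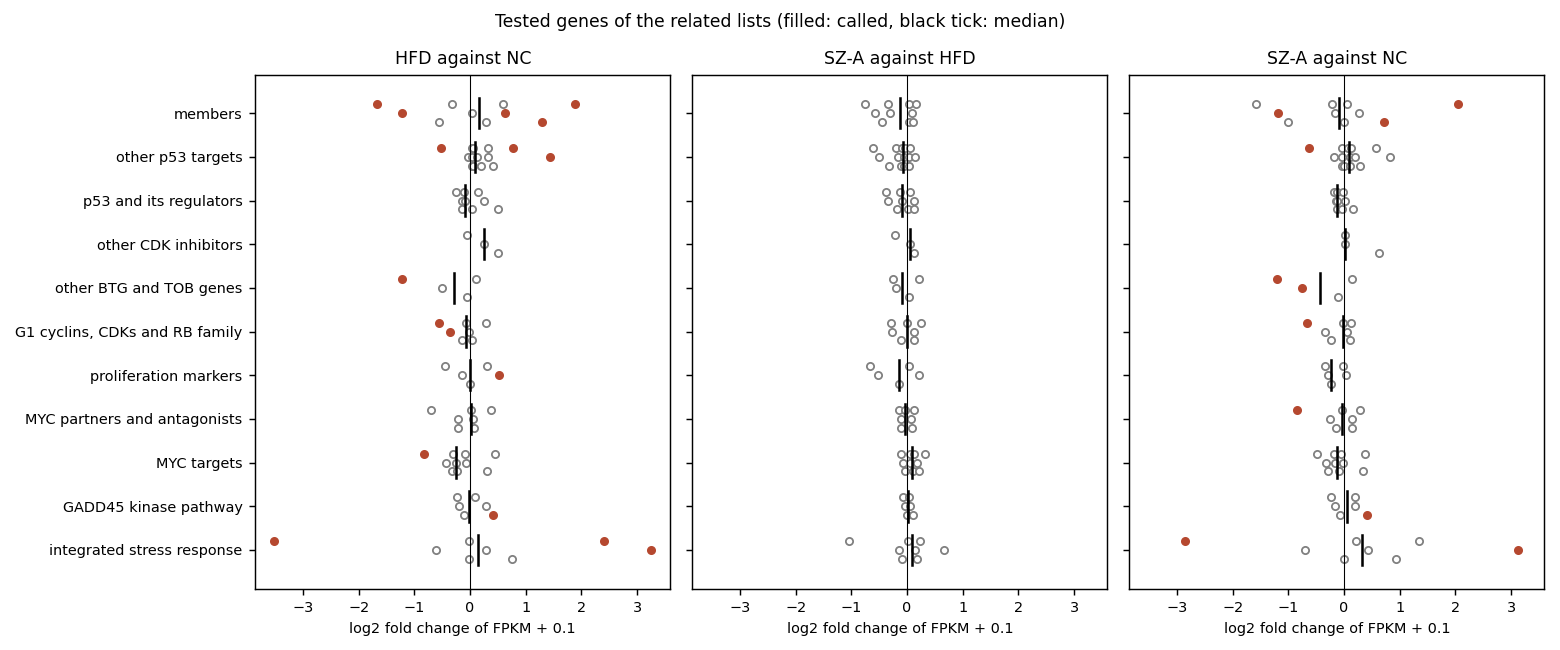
Log2 fold change of FPKM + 0.1 (x axis) of the members and of the tested genes of related lists (rows) for the 3 comparisons. The glucocorticoid-induced, immediate early and clock genes are not drawn. Filled points were called over all genes tested, and black ticks mark list medians. The median of the other p53 targets in HFD against NC is 0.09, with Phlda3 at 1.43 as its highest point, and the SZ-A against HFD panel holds no filled point.

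In SZ-A against HFD, none of the members had groups that did not overlap, against 1.28% of genes. An unadjusted p under 0.05 was reached by 3 members, Btg2, Ccnd1 and Ccng1, all lower in SZ-A, beside 6.09% of genes that were lower at that level. With fragments and voom, 0 members were called as well. None of the tested genes of the 13 related lists was called in this comparison by limma. An unadjusted p under 0.05 was reached by 14.8% of all genes tested, 8.74% higher and 6.09% lower. Lower in SZ-A at that level were 2 of 14 other p53 targets, 2 of 9 genes of p53 and its regulators, 2 of 5 proliferation markers and 1 of 7 immediate early genes. Higher were 2 of 10 MYC targets and 3 of 9 glucocorticoid-induced genes, and the other lists had 0. Atm, of the p53 regulators, and Mcm3 are among the lower genes and passed the filter only through HFD. Cell type markers had lower values in the same comparison as Btg2, Ccnd1 and Ccng1. All 8 stellate cell markers had negative log2 differences (median -0.55), 5 of them with an unadjusted p under 0.05, Col1a1 at -1.79 (adjusted p = 0.1) and Col3a1 at -1.49 (adjusted p = 0.0961) among them. Of the Kupffer cell and macrophage markers, 3 of 8 were lower at that level (median -0.39), and Cd68, a macrophage lysosomal protein, was called (-0.64, adjusted p = 0.0451). Both tested adipocyte markers were lower at that level, Cfd by 3.57 (log2 difference -3.57, adjusted p = 0.0877), as were 2 of 7 endothelial markers and 1 of 2 tested cholangiocyte markers, while 2 of 6 hepatocyte markers were higher and 0 of 2 tested neutrophil markers reached it. The part of these cells in the lower values of Btg2, Ccnd1 and Ccng1 was not tested. The median log2 fold change was -0.14 for the members and 0.03 for all genes.

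Against NC, where the SZ-A mice differed in 3 of 10 members, Gadd45a was the member whose groups did not overlap, beside 5.5% of genes. All 3 calls held without NC6, where Gadd45b had an adjusted p of 0.0447. The members' median was -0.08, and that of all genes was -0.01. Of the related genes, Ei24 (-0.63, adjusted p = 0.00719), Btg3 (-1.20, adjusted p = 0.0144), Btg1 (-0.75, adjusted p = 0.0377), Ccnd3 (-0.67, adjusted p = 0.00149) and Mycl (-0.84, adjusted p = 0.0426) were lower in SZ-A than in NC, and Map2k3 was higher (0.41, adjusted p = 0.0236). Over all genes tested, 5.31% were called higher and 4.3% lower. Not called were 13 of 14 tested other p53 targets, 2 of 4 other BTG and TOB genes and 6 of 7 tested G1 genes. Nor were 6 of 7 tested MYC partners and antagonists and 5 of 6 tested genes of the Gadd45 kinase cascade. In the other related lists, Chac1 was higher (3.12, adjusted p = 0.00406) and Asns lower (-2.86, adjusted p = 0.00231), the clock genes Dbp (2.34, adjusted p = 0.03), Per3 (1.95, adjusted p = 0.0403) and Per2 (1.36, adjusted p = 0.0176) were higher, and Clock (-0.63, adjusted p = 0.033) and Pck1 (-0.61, adjusted p = 0.0236) were lower. There, 6 of 8 tested integrated stress response genes, 4 of 8 tested clock genes and 8 of 9 glucocorticoid-induced genes were not called. No gene of the remaining lists was called. Of the cell type markers, Cd68 (0.71, adjusted p = 0.0375), Col3a1 (1.2, adjusted p = 0.0398), S100a8 (1.69, adjusted p = 0.0182) and S100a9 (1.79, adjusted p = 0.0362) were higher and Sox9 was lower (-0.62, adjusted p = 0.0226). Not called were 7 of 8 macrophage markers, 7 of 8 stellate cell markers and 1 of 2 tested cholangiocyte markers. Of the 8 stellate cell markers, 2 had negative log2 differences. No hepatocyte, endothelial or adipocyte marker was called. The part of these cells in the values of the members was not tested. Each pair of comparisons shares 6 mice, so the 3 sets of values are not independent of each other.

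Within groups, single mice stood at the top or bottom for many members. SZ-A5 was the highest SZ-A mouse for 8 of the 10 genes, all but Gadd45a and Ccnd1, and SZ-A1 was the lowest for 7. In NC, NC2 was the lowest for 7 genes, and NC1 and NC5 were the highest for 4 and 3. SZ-A5 also had a Dbp level of 7.22 FPKM, where the other SZ-A mice had 29.4 to 47.1, and the highest Atf3 (7.14) and Chac1 (16.5) of all mice. NC5, with the most Cdkn1a and Gadd45g of NC, had the lowest Dbp of NC (0.99, others up to 14.0). Dbp swings with the time of day in liver, and the hour of collection of each mouse is not given in the sources used here; its part in these values was not tested. With NC5 and SZ-A5 both left out, 4 members were called in SZ-A against NC by limma, Gadd45g among them (-1.78, adjusted p = 0.00968). These mice were picked after their values were seen and had the highest Gadd45g of their groups, so this call is no independent result.

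**Figure D4:**
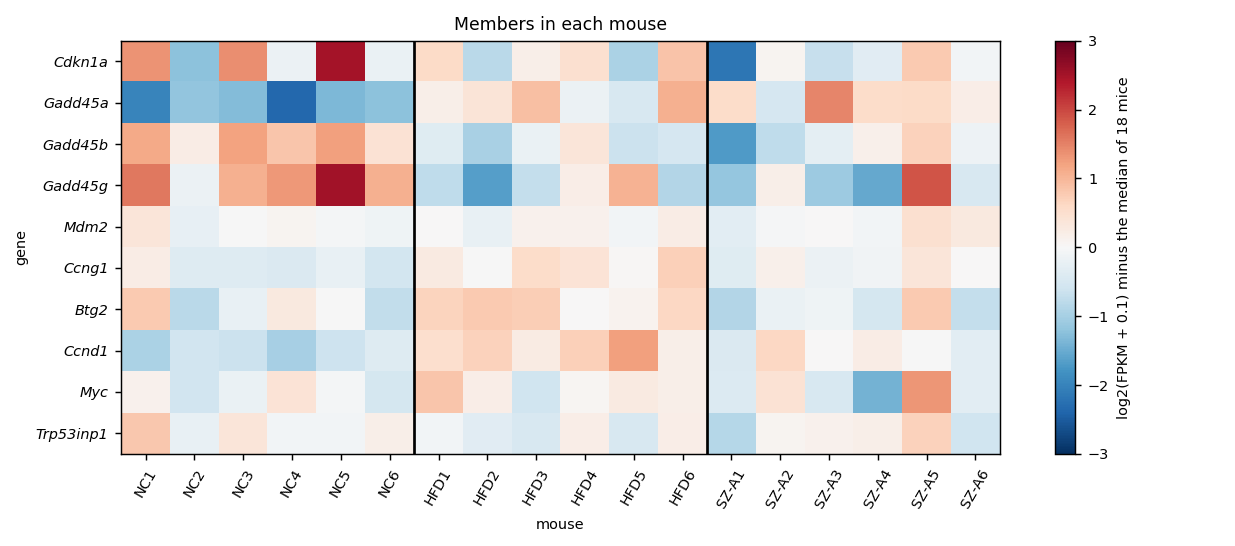
Each gene (rows) in each mouse (columns) as log2(FPKM + 0.1) minus the median of the 18 mice; red is above and blue below that median, on a scale from -3 to 3. The Gadd45a row is blue in all 6 NC mice, the SZ-A5 column is red or near the median for most genes, and SZ-A1 is blue in most.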

How the data were processed

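Liver RNA-seq of 18 mice was analysed. Per the labels and methods, the authors aligned paired reads to mm10 with HISAT2 2.0.5 and counted them with featureCounts 1.5.0-p3; the deposited values are FPKM per gene, with no further filter found. The deposited gene length (bases per gene, another kind of value) turned FPKM back into whole fragments for 100% of values within 0.05, which gave depth and counting error. FPKM use a library size 0.9325 to 1.0248 times that depth in NC, 0.9983 to 1.1414 times in HFD and 0.9718 to 1.0468 times in SZ-A. The scaling therefore differed between groups, mostly toward lower FPKM in HFD. Groups came from sample titles. Per comparison, limma 3.58.1 (R 4.3.3; trend, two-sided) was fitted to log2(FPKM + 0.1) of the 12 mice of both groups for the genes whose mean FPKM reached 1, with Benjamini-Hochberg adjustment; the code was tested on simulated data. No libraries were duplicates (lowest chi-square per degree of freedom 20.3). The members and lists were chosen with earlier results of these data known. Text names all members, Trp53, Mdm4, Mki67, Cdkn1b, at most 3 called genes per list and comparison, overlapping genes and defining markers at 0. Per3 in SZ-A against NC, the uncalled Btg1, Tob1 and Tob2 in HFD against NC and the uncalled Atm and Mcm3 in SZ-A against HFD are named beyond this rule. Other cell type markers were chosen after their values were seen. Alternatives covered pseudocounts, filters, scalings, fits, weights, thresholds and leaving out each mouse. Over all genes, mouse numbers did not pair the groups.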

Additional observations from a re-analysis of the deposited data

Results flagged for a closer look

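In 30 groups of 6 mice (10 genes in 3 groups), 3 held a mouse whose gap to the nearest other mouse was a larger share of the range of the group than Dixon's 95% critical value. Gaps were taken on linear FPKM, while the fold changes above use log2 values. Chance alone gives about 1 in 20 only for normally distributed values, which was not checked. Log2 values were not tested in this way, so the flags may depend on the scale. Gadd45g in SZ-A5 was 59.2 FPKM, with the next SZ-A mouse at 18.2 (gap 0.76 of the range). Btg2 in SZ-A5 was 8.18, with the next at 4.27 (0.69). Ccng1 in NC1 was 14.2, with the next NC mouse at 10.5 (0.63). The 2 values of SZ-A5 come from the mouse that was highest in its group for 8 of the 10 genes.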

How the results depend on the processing

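Of 691 values over the 30 member fold changes and their alternatives, 638 kept their direction and side of the threshold, 11 lost the call, 9 gained it and 33 turned direction. Members called in HFD against NC numbered 5, and 3 with a mean FPKM of at least 5, a filter that Gadd45a and Ccnd1 do not reach. In SZ-A against HFD they were 0, but 1 with sample weights (Btg2, adjusted p = 0.0474), 3 with unadjusted p, and 0 to 1 on leaving out 1 mouse (1 without SZ-A5). In SZ-A against NC they were 3, but 1 with no filter (Gadd45a) and 1 with a mean FPKM of at least 5 (Gadd45b). Without a filter, Gadd45b (adjusted p = 0.137) and Ccnd1 (0.0644) lost their calls there and Gadd45g (0.071) in HFD against NC, where Btg2 was called with FPKM rescaled to a common sum (0.0411) and with sample weights (0.0394). With a common sum, the all-gene median went from -0.03 to 0.15 in HFD against NC and from 0.03 to -0.15 in SZ-A against HFD, where it turned Gadd45a to -0.01, Gadd45b to -0.13, Gadd45g to -0.09, Mdm2 to -0.15 and Trp53inp1 to -0.08. Sample weights turned Gadd45b to -0.01 and Gadd45g to -0.06 there. On leaving out 1 mouse, values in SZ-A against HFD ran from -0.04 to 0.36 for Gadd45a, -0.16 to 0.32 for Gadd45b, -0.36 to 0.39 for Gadd45g, -0.06 to 0.10 for Mdm2 and -0.05 to 0.26 for Trp53inp1; in HFD against NC from -0.01 to 0.11 for Mdm2; and in SZ-A against NC from -0.30 to 0.25 for Myc, -0.02 to 0.13 for Mdm2 and -0.37 to 0.02 for Btg2. Myc in SZ-A against NC was 0.04 with a pseudocount of 1 and 0.01 with a common sum, and Mdm2 was -0.04 without NC5 and SZ-A5, an alternative chosen after seeing the data. None of the values that turned direction was called, and the causes were not tested.

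Mouse numbers did not pair the mice: correlations of same-numbered mice ran from -0.12 to 0.29, and 1, 1 and 3 of 6 mice matched best with their own number. With the number as replicate block, 5, 0 and 4 members were called in HFD against NC, SZ-A against HFD and SZ-A against NC; the added call was Gadd45g (adjusted p = 0.0464). Over all genes, calls were 2062 in HFD against NC (1271 with a mean FPKM of at least 5, 371 at a fold over 2), 15 in SZ-A against HFD (0 with no filter or the block, 26 with a mean FPKM of at least 5, 32 with voom, 35 with all 18 mice in one fit, 216 with a common sum, 233 with sample weights, 7 at a fold over 2, 922 with unadjusted p and 2 to 49 on leaving out 1 mouse) and 981 in SZ-A against NC (564 with no filter, 1682 with sample weights, 205 at a fold over 2, 2064 with unadjusted p, 601 without SZ-A3 and 629 without SZ-A6). Depth limits mainly Gadd45a in NC and Myc.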
